A study of Drosophila melanogaster with 2 samples.

Results

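The Rab genes encode the largest branch of the Ras superfamily of small GTPases, the proteins that give each membrane compartment of a cell its identity and direct vesicles between compartments. They were taken as every protein-coding gene of the Ensembl annotation of the dm6 assembly whose name is Rab or RabX followed by a number, with or without further letters. This rule found 33 genes among the 13968 that code for protein on the chromosome arms, and 13 of them lie on the X chromosome. The rule used names only and no measured value.

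Binding was measured by chromatin immunoprecipitation and sequencing (ChIP-seq) in whole Drosophila melanogaster prepupae of mixed sex, 24 h old. The flies were transgenic and stably expressed the ETS transcription factor Ets96B with eGFP at its C terminus. An antibody against GFP was used, although a separate label field gives the antibody the name of the factor. All samples belong to 1 group of 2 biological replicates, numbered 2 and 3, and the design holds no second condition. The promoter that drives the fusion protein is not given in the sources used here. Since whole animals were used, a peak cannot be placed in any cell type, and binding in few cells cannot be told apart from weak binding in many. A control alignment entered the authors' peak calls and was not analysed here.

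A Rab protein is a switch. Exchange factors load it with GTP and GTPase-activating proteins return it to the GDP form. Lipid anchors added by a prenyltransferase hold it in the membrane, and a dissociation inhibitor recycles it through the cytosol. In the GTP form it recruits effectors such as tethers and motor adaptors. Rab5 marks early endosomes, Rab7 late endosomes, Rab11 recycling endosomes and Rab1 the route from the endoplasmic reticulum to the Golgi.

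The authors deposited 4 lists of peaks on dm6. The replicate 2, replicate 3 and pooled lists each held 30000 peaks, and the reproducible list held 8015, which were the 8015 strongest pooled peaks. Each peak has a summit and a signal value, the authors' own score for the height of the peak, which ran from 148 to 5811 in the reproducible list with a median of 293. It was used only to rank peaks within a list, rank 1 being the strongest. The number of reads behind each list is unknown, so no counting error can be given. The 2 replicates are the only measure of error, and no test across Rab genes was made.

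Reproducible Ets96B-eGFP summits came within 500 bp of a transcription start site (TSS) at 4 Rab genes, Rab5, Rab7, Rab14 and Rab39. A gene of this kind is called occupied here. These 4 are 12.1% of the 33 Rab genes, beside 20.5% of all protein-coding genes (2863 of 13968). A reproducible summit lay inside the transcribed region of 6 Rab genes, Rab5, Rab7, Rab11, Rab14, Rab32 and Rab35, which is 18.2% beside 15.2% of all genes. With either position counted, the Rab genes were 7, or 21.2%, beside 26.7% of all genes. Genes with several start sites have more chances to be counted. Of the 24 Rab genes with 1 start site, 1 was occupied (4.17%, beside 15.0% of all such genes). Of the 9 with more, 3 were occupied (33.3%, beside 35.6%).

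Each replicate gave the 4 occupied Rab genes from its own 8015 strongest peaks, and the further Rab genes differed between replicates. Replicate 2 gave 5 (15.2%, beside 21.5% of all genes), the 4 occupied genes and Rab11. Replicate 3 gave 6 (18.2%, beside 20.4%), the 4 occupied genes with Rab8 and Rab30. For promoter summits, the Rab share therefore lay below that of all genes in these 3 lists, and with 33 genes the gap amounts to few genes. For summits in the transcribed region it lay above in the reproducible list, as given before, and was not compared in the 2 replicate lists.

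**Figure D1:**
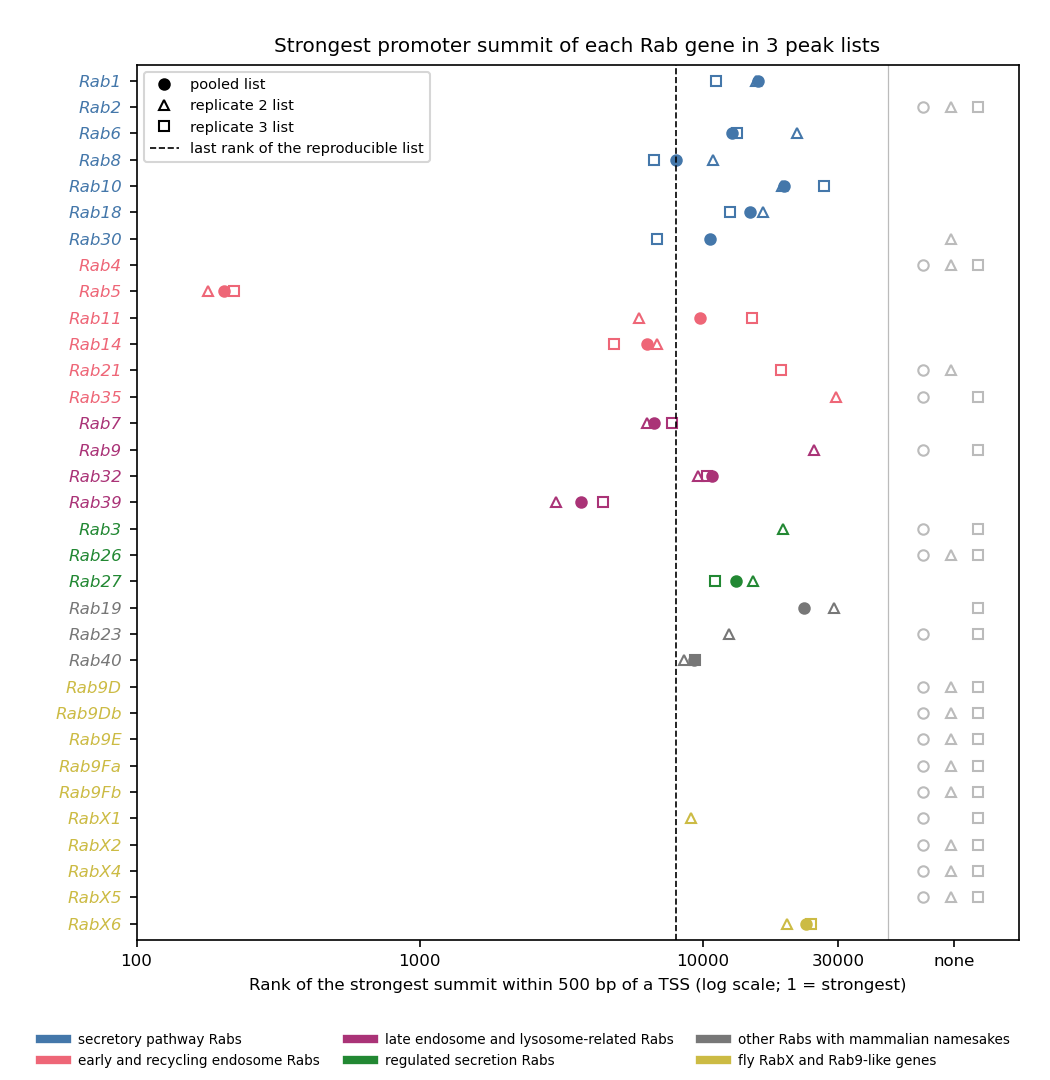
Rank of the strongest summit within 500 bp of a TSS of each Rab gene in the pooled, replicate 2 and replicate 3 lists (log scale, rank 1 strongest), grouped by cellular role, with the last reproducible rank drawn as a line. Rab5 stands alone at ranks 179 to 221, and 11 Rab genes have no promoter summit in any list.

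Rab5, the GTPase of early endosomes that drives their fusion and the uptake of receptors, carried by far the strongest Rab peak. Its summit had a signal value of 1783 and rank 203 in the reproducible list. In replicate 2 the summit ranked 179 with a signal value of 702, and in replicate 3 it ranked 221 with 1101. Both replicates thus placed it near the top of their lists, with summits 12 bp apart. The peak spans chr2L:2363547-2363962 on dm6, inside an intron of Rab5. Rab5 has 6 start sites, and the summit lies 251 bp upstream of the nearest one and 1518 bp downstream of the first. No start site of another gene lies within 500 bp.

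Nearer the first start site, the peaks were weaker. That start is 72 bp from a start of Axud1 on the opposite strand, and the pooled summit 98 bp from that Axud1 start ranked 11599 with a signal value of 97.0. A further pooled summit of rank 8774 (signal value 134) lay 3′ of the main peak. The main peak thus lay inside Rab5, away from the region shared with Axud1.

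The sequence under the Rab5 summit is shown because it is the strongest Rab site and carries no extended ETS word. It covers 75 bp to either side of the summit on the gene's (minus) strand, chr2L:2363680-2363830, and was read from the RefSeq copy of the assembly. Capitals mark TTCC, the reverse complement of GGAA, the core that ETS factors bind.
Rab5: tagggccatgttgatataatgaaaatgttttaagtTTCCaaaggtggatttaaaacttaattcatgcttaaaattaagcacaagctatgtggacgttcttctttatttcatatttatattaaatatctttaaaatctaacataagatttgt
The window holds 1 GGAA core, as do 62.8% of the windows of the same length at all 8015 reproducible summits. Its G+C content was 25.2%, beside a median of 31.1% over those windows.

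Rab14, an endosomal Rab that acts between endosomes and the Golgi in mammalian cells, was the other early endosomal gene with a promoter summit, and it carried a pair of reproducible peaks. The stronger summit had a signal value of 337 and rank 3431, with rank 3528 in replicate 2 and 3008 in replicate 3. It lies in an intron, 575 bp from the first start, just past the 500 bp limit and also within an intron of the non-coding RNA gene lncRNA:CR44851. The weaker summit had a signal value of 190 and rank 6322, with rank 6878 in replicate 2 and 4844 in replicate 3. It lies in the 5′ UTR, 31 bp past the start of Rab14 and 91 bp from that of l(2)34Fd on the opposite strand. A further pooled summit, 775 bp from the first start, ranked 8069 with a signal value of 147, just past the end of the reproducible list. The intron of Rab14 thus held more of the signal than its start site in both replicates.

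The window at the stronger Rab14 summit (plus strand, chr2L:14355645-14355795) is shown because none of the words searched occurs in it, so it has no capitals. Below it is the whole stretch between the starts of Rab14 and l(2)34Fd (plus strand, chr2L:14355086-14355144), which also holds none of them. The weaker Rab14 summit, at 14355176, lies outside this stretch.
Rab14 intron: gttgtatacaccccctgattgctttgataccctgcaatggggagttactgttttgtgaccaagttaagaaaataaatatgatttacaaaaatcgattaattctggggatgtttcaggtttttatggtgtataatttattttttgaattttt
Rab14 and l(2)34Fd: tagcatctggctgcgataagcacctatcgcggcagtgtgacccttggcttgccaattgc
These start sites are only 60 bp apart, and 55.9% of the bases between them are G or C, while the intronic window has 31.1%.

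Rab7, which carries endosomes and autophagosomes on to lysosomes, had a reproducible summit of signal value 177 and rank 6739. In replicate 2 it ranked 6354 with 76.2, and in replicate 3 it ranked 7773 with 95.7. Both ranks are within the 8015 strongest of each list, and the replicate summits were 3 bp apart, the closest of any Rab peak. The summit lies in the 5′ UTR, 56 bp past the first of 3 start sites and 148 bp from the start of Epp, which is transcribed the other way. Pooled peaks followed further into the gene at ranks 11820 (94.5) and 12508 (88.3).

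Rab39, linked in animals to lysosomes and autophagy, had a stronger one, of signal value 316 and rank 3701. Replicate 2 ranked it 3025 with 144 and replicate 3 ranked it 4441 with 168. The summit lies 343 bp upstream of the single Rab39 start and only 71 bp from a start of Pdp, inside the 5′ UTR of Pdp. Pdp encodes the phosphatase that activates pyruvate dehydrogenase. When each summit was given only to its nearest start site, Rab39 was no longer counted. A weaker pooled summit 143 bp upstream of Rab39 ranked 9263 with 126.

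The stretches between the starts of each gene pair are shown because Rab7 and Rab39 share them with a neighbour. Both are on the plus strand, chr3R:23992917-23993007 and chrX:7734652-7734922, and capitals mark TATCGATA, the word bound by the DNA replication-related element factor DREF. Neither stretch holds the reproducible summit, which is at 23993064 for Rab7 and at 7734580 for Rab39.
Rab7 and Epp: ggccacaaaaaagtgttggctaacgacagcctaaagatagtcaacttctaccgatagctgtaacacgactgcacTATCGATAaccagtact
Rab39 and Pdp: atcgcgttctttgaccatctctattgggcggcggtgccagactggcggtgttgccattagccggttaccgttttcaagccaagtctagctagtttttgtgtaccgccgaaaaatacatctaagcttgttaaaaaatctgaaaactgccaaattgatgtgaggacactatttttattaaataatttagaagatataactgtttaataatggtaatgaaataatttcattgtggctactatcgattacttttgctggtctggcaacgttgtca
TATCGATA lay within 100 bp of the summit at 1 of the 4 Rab promoter summits and at 4.19% of all promoter summits, in windows of the same length. Within 50 bp it lay at none of the 4, beside 1.30%.

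Rab11, the recycling endosome GTPase needed for membrane delivery in many fly tissues, had no reproducible promoter summit and a pair of reproducible summits in its long first intron. The stronger had a signal value of 400 and rank 2785, with 138 (rank 3196) in replicate 2 and 279 (rank 2492) in replicate 3, 1840 bp from the start site. The weaker, 1141 bp from the start, had 158 and rank 7515. Its ranks differed more between replicates, 5495 in replicate 2 and 10557 in replicate 3. At the start site itself the replicates also differed. The pooled summit 13 bp upstream ranked 9784 (118), the replicate 2 summit at the same base ranked 5962, and the highest in replicate 3 ranked 14931.

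The Rab11 windows are shown because they are reproducible sites deep in a gene whose start was not called. They read along the plus strand, chr3R:21113173-21113323 for the stronger and chr3R:21112474-21112624 for the weaker. Capitals mark TTCC, CTCTC (the reverse complement of GAGAG, the word of the GAGA factor) and CAGGTAG, the word of the early embryonic factor Zelda.
Rab11 stronger: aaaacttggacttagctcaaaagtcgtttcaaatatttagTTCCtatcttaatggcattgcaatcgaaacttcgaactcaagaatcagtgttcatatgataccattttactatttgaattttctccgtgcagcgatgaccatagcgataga
Rab11 weaker: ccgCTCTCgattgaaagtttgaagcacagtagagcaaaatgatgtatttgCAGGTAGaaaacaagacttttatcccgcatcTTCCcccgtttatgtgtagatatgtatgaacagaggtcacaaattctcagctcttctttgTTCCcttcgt
Windows of this length held GAGAG at 15.7% and CAGGTAG at 0.499% of all reproducible summits.

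Rab35 and Rab32 had 1 reproducible summit each, both inside the gene and beyond 500 bp of a start. Rab35, which acts in recycling and cytokinesis, had a summit of signal value 210 and rank 5680 in its long 5′ UTR, 771 bp from its start. It ranked 9774 in replicate 2 and 4682 in replicate 3. Rab32, known as lightoid in the fly and required for pigment granules of the eye, had a summit of 154 and rank 7706 in an intron, 1697 bp from its first start. Its replicate ranks were 9111 and 6356. In both genes the replicate 3 summit was within the 8015 strongest of its list and the replicate 2 summit was not. A much stronger summit (1174) lies just past the end of Rab32, next to its neighbour Rme-8, a gene for a chaperone of endosomes, and was not counted for Rab32.

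**Figure D2:**
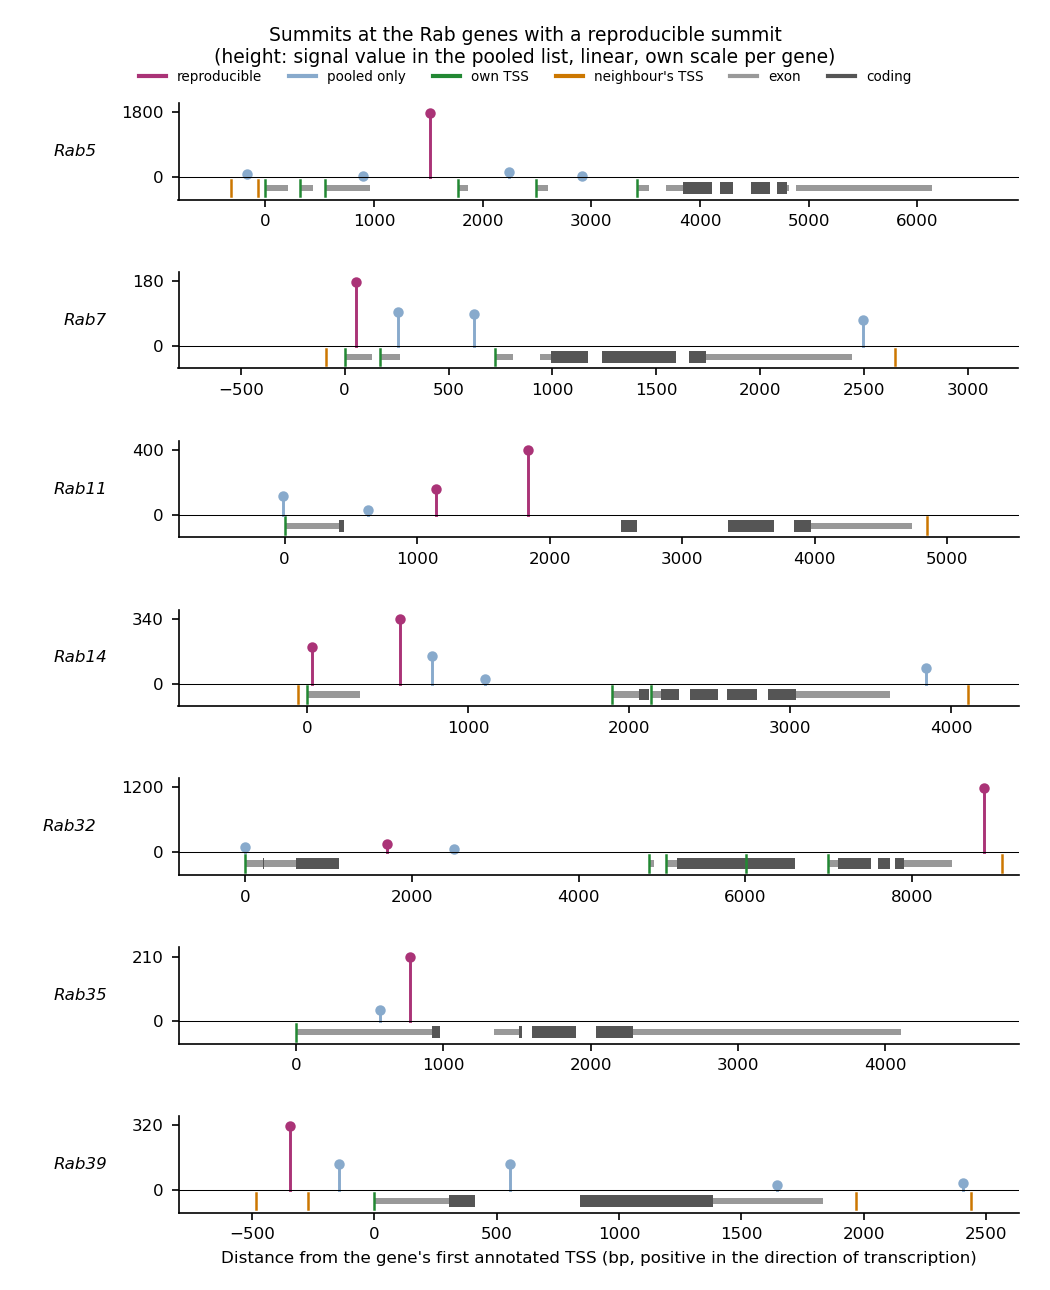
Summits at the 7 Rab genes with a reproducible summit, by distance in bp from the first TSS, with stem height giving the pooled signal value on a linear scale set separately for each gene; marks below the line give exons, coding exons and start sites. The tallest stem is inside the gene at Rab5, Rab11, Rab14 and Rab35, upstream of Rab39, and past the end of Rab32. At Rab7 it is also inside the gene, 56 bp past the first start.

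Over the 9 reproducible summits in or near Rab genes, the median signal value was 210 and the median rank 5680, in a list whose middle signal value was 293. Peak widths ran from 103 to 416 bp, median 299, beside 310 for all. The replicate summits lay a median of 32 bp apart (3 to 60), beside 24 bp for the 7901 reproducible peaks matched in both lists. The median Rab summit thus lay in the weaker part of the list, which with 9 summits is a description. The Rab5 and Rab39 summits and the stronger Rab11 and Rab14 summits, at ranks 203 to 3701, were among the 4007 strongest. At each Rab summit the 2 replicate summits lay within 60 bp of each other.

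**Figure D3:**
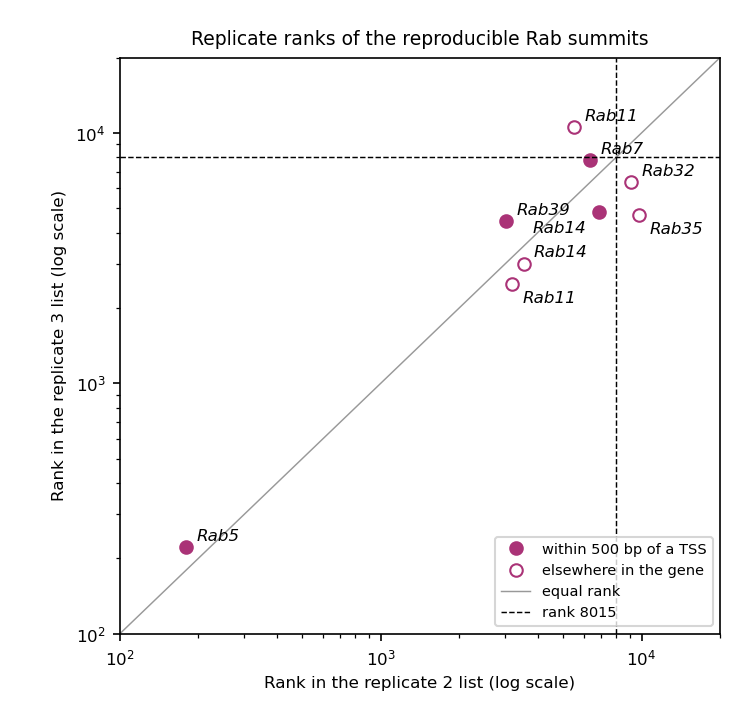
Rank of each of the 9 reproducible Rab summits in the replicate 2 and replicate 3 lists (both axes log scale), with filled points for promoter summits, open points for summits elsewhere in the gene, dashed lines at rank 8015 and a grey line for equal rank. Rab5 lies far below the rest at ranks 179 and 221, and the weaker Rab11 summit, Rab32 and Rab35 each pass rank 8015 in 1 replicate.

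Sorted by role, the Rab genes with reproducible binding were endosomal or lysosomal. Of 6 Rabs of early and recycling endosomes, 2 were occupied at a promoter (Rab5 and Rab14) and 4 had a summit at a promoter or in the gene. Of 4 Rabs of late endosomes and lysosome-related organelles, the numbers were 2 (Rab7 and Rab39) and 3. None was occupied among 7 Rabs of the secretory pathway, 3 of regulated secretion, 3 others with mammalian namesakes, and 10 RabX and Rab9-like genes. Together, endosomal and lysosomal Rabs gave 4 of 10 at promoters and 7 of 10 at promoters or in genes, and all other Rabs 0 of 23 and 0 of 23. The shares of all genes were 20.5% and 26.7%. This grouping was put together after the values were seen, and the difference was not tested. In the endosomal and lysosomal set, Rab5, Rab7, Rab14, Rab21 and Rab32 have several start sites. Among the other Rabs, Rab8, Rab19, Rab26 and Rab40 do. The other Rabs also include the Rab9-like genes, near copies of one another, and RabX2, which resembles them. A missing peak at these genes is uncertain. The part of start-site number or of copies in this split was not tested. The split was not complete under other settings. In the strongest peaks of replicate 3, promoter or body summits were at 7 of the first set and 2 of the second (Rab8 and Rab30), beside 26.5% of all genes. Within 1000 bp of a start, reproducible summits were at 5 and 2 (Rab18 and Rab30), beside 24.3%. In the whole pooled list, promoter or body summits were at 8 and 12, beside 44.3%.

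Just past the end of the reproducible list was a secretory Rab. Rab8, which sends vesicles from the Golgi to the plasma membrane, had a pooled summit of rank 8017, 2 places past the last reproducible peak. Its signal value was 148, equal at 3 digits to the lowest in that list, and its −log10 q-value of 4.42 was that of every reproducible peak. For the strongest Rab8 promoter summit, replicate 2 gave rank 10848 (45.3) and replicate 3 rank 6693 (112). Only replicate 3 thus had a Rab8 promoter summit among its strongest 8015. The pooled and replicate 2 summits lay 163 and 173 bp past the start. The replicate 3 summit lay 12 bp past it, at another position. The start of Usp32 on the opposite strand lies 61 bp from that of Rab8.

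In all, 16 Rab genes (48.5%) had a pooled summit within 500 bp of a start, beside 40.3% of all genes, so the Rab share was the higher one in the full list. For summits in the transcribed region the pooled numbers were 15 (45.5%) beside 28.2%. Besides the 4 occupied genes, the 12 with a pooled promoter summit were Rab1, Rab6, Rab8, Rab10, Rab11, Rab18, Rab19, Rab27, Rab30, Rab32, Rab40 and RabX6. Rab40, whose product carries a SOCS box and is linked to ubiquitin ligases, came at rank 9319 (125), with ranks 8602 and 9396 in the replicates. Rab30, a Golgi Rab, ranked 10622 (108) in the pooled list and 6884 (109) in replicate 3, and had no promoter summit in replicate 2. Its summit was 9 bp from the start of Caper, a splicing factor gene.

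The other secretory Rabs with a pooled promoter summit ranked lower still than Rab8 and Rab30, as did Rab27. Rab6, of Golgi transport, had pooled rank 12616 (87.3), and Rab18, of lipid droplets, 14629 (72.1). Rab1 had rank 15609 (66.0), with rank 15340 in replicate 2 and 11099 in replicate 3. The replicate summits of Rab1 lay 218 and 8 bp upstream of its start, so they did not mark one position. Rab10, of basal and basement membrane secretion in fly epithelia, was at 19321 (48.7). Rab27, of regulated secretion, was at 13099 (83.2).

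Over the 16 Rab genes with a pooled promoter summit, the median rank of the strongest one was 10684 (203 to 23034), beside 7832 over the 5625 genes with one. The medians were 13656 and 8552 in replicate 2 and 10718 and 7940 in replicate 3. In each of these lists the typical Rab promoter summit was of lower rank than that of all genes, while Rab5 was near the top.

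The whole replicate lists differed on several Rab genes. Replicate 2 had a promoter summit at 20 (60.6%, beside 45.5% of all genes) and replicate 3 at 16 (48.5%, beside 40.6%). Both had one at 14 (42.4%, beside 36.6%). Rab3, Rab9, Rab19, Rab23, Rab35 and RabX1 had one in replicate 2 alone, and Rab21 and Rab30 in replicate 3 alone. Their ranks ran from 6884 (Rab30) to 29524 (Rab35). Rab3, the synaptic vesicle Rab, ranked 19196. RabX1 ranked 9077, and Rab23, a planar polarity gene in the fly, ranked 12330 at a summit 187 bp from the start of plx.

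Counting any of the 4 lists and either position, 23 Rab genes (69.7%) had a summit, beside 54.0% of all genes. The 10 with none were Rab2, Rab26, RabX2, RabX4, RabX5 and the Rab9-like Rab9D, Rab9Db, Rab9E, Rab9Fa and Rab9Fb. Rab4, of fast endosomal recycling, had no promoter summit in any list and 1 weak summit in its coding exon, of rank 19518 in replicate 2 alone. Rab2, of the Golgi, is 78 bp from the start of Mob4 and had nothing there in any list. Rab26, linked to synaptic vesicles, is the longest Rab gene with 16254 bp and also had nothing.

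The 5 Rab9-like genes are X-linked copies of one another, between 871 and 897 bp long. In pairs among Rab9D, Rab9Db, Rab9E and Rab9Fa the whole genes were 96.0% to 99.0% identical, and over all 10 pairs they were 77.7% to 99.0% identical. The 1001 bp around their starts were 62.5% to 90.8% identical. RabX2, also on the X chromosome, was 76.1% to 78.9% identical to them over the whole gene. Around the start it was 64.3% to 87.8% identical to them. Reads from such copies cannot always be placed, so a missing peak there is uncertain, and the mappability was not tested.

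The median distance from a start site to the nearest reproducible summit was 5537 bp (31 to 32798) over the 33 Rab genes and 5695 bp over all genes. Among roles it was 956 bp for the 6 early and recycling Rabs, 1020 bp for the 4 late endosomal ones, 2743 bp for the 3 other Rabs with mammalian namesakes, 5949 bp for the 7 secretory ones, 6204 bp for the 3 of regulated secretion and 10660 bp for the 10 RabX and Rab9-like ones. The genes also differ in length, and the order of the medians was another one. It was 893 bp for the RabX and Rab9-like genes, 2731 bp for secretory, 2856 bp for late endosomal, 3317 bp for the other namesake, 3864 bp for early and recycling and 7869 bp for regulated secretion Rabs, of which none was occupied. The part of length in these counts was not tested.

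Of the 33 Rab genes, 18 had the start of an opposite-strand gene within 1000 bp, beside 5141 of all 13968 genes. These 18 held all 4 occupied Rab genes (22.2%). Over all genes with such a neighbour 33.2% were occupied, and over the others 13.1%, while none of the other 15 Rab genes was. Several pairs with closely spaced starts had no reproducible summit. Rab2 and Mob4, Rab8 and Usp32, Rab21 and Coa7, and Rab27 and mei-38 start within 100 bp of each other, and none was occupied. At 3 of the 4 occupied Rab genes (75%) every promoter summit was also within 500 bp of a start of another gene, beside 50.5% of all occupied genes. Rab5 was the exception. At Rab7, Rab14 and Rab39 a summit can therefore not be given to the Rab gene alone.

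The promoter summits were upstream at Rab5 and Rab39 and downstream at Rab7 and Rab14, whereas 83.0% of the summit and gene pairs of the whole genome were upstream. The median signed position was −110 bp over 4 Rab summits and −148 bp over 3277 pairs. In the pooled list 17 of 27 Rab summits (63.0%) were upstream, beside 69.7%, so the difference was smaller with more summits.

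A set of 9 sequence words were counted on both strands within 50 bp of each summit. GGAA is the core bound by ETS factors, and the longer ETS words CCGGAA and CAGGAA contain it. TAATTA is bound by homeodomain factors and CACGTG by basic helix-loop-helix factors. The word of GATA factors was AGATAA. Those of DREF, Zelda and the GAGA factor are named above. GGAA was found at 2 of the 4 Rab promoter summits, Rab5 and Rab14, beside 47.5% of all 2456 promoter summits. CAGGAA was at Rab14 alone, beside 2.77%, and CCGGAA at none, beside 1.83%. TAATTA was at 2, Rab7 and Rab39, beside 11.0%, and GAGAG at Rab7, beside 12%. The other words were at none, beside 7.90% for AGATAA, 1.30% for TATCGATA, 0.855% for CACGTG and 0.326% for CAGGTAG.

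At the 5 Rab summits elsewhere in genes, GGAA was found at 4 (both Rab11 summits, Rab32 and Rab35), beside 48.0% of the 5559 other summits. TAATTA was at 1 (Rab32, beside 11.0%), CAGGTAG at 1 (the weaker Rab11 summit, beside 0.270%) and GAGAG at 1 (Rab35, beside 9.43%). The Rab35 window held 9 overlapping matches of GAGAG and had the highest G+C content of the Rab summits, 54.5%, while the Rab39 window had the lowest, 16.8%. Neither the strongest Rab peaks nor the weaker ones shared one word. With 4 and 5 summits these counts are a description.

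Many regulators and partners of Rab proteins were occupied. Of 81 genes for delivery, exchange, GTPase activation, effectors and tethers, 30 (37.0%) had a reproducible promoter summit, beside 20.5% of all genes. Counting a summit at no start but the closest one, the numbers were 19 (23.5%) beside 15.8%. The Rab genes themselves gave 12.1%, or 9.09% by nearest start site, and no test of this difference was made. The median length of the 81 genes was 3730 bp, beside 2445 bp for the Rab genes. The part of length or of start-site number was not tested. These lists were chosen with earlier results of these data known, so their shares are a description. The 20.5% of all genes also stands beside each single list below.

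The proteins that prepare Rabs for membranes were occupied at 3 of 6 genes. These were RabGGTa and RabGGTb, the subunits of the geranylgeranyl transferase (signal values 395 and 190), and temp (280), which acts in the prenylation of fly Rabs. Gdi, the dissociation inhibitor, and Rep, the escort protein, were not. Of 13 exchange factors 4 were occupied. The strongest was Mon1, part of the exchange factor for Rab7, with 1014 and rank 697, 73 bp upstream of its start and 149 bp from that of mRpS2. It ranked 890 and 619 in the replicates, far above Rab7 itself. The Rab5 exchange factor gene spri (702) and Rich (212), whose mammalian relatives act on Rab6, were occupied too. The Rich summit was 236 bp from its own start and 212 bp from that of Ddx1.

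TRAPP, a complex that activates Rab1 and Rab11, had 3 of 9 genes occupied, SIDL (1258), Trs20 (281) and Trs33 (227). GTPase-activating proteins had 4 of 13, led by sky (725), which controls synaptic vesicle sorting through Rab35, and GAPcenA (586). Rab3GAP1 (435) and TBC1D23 (405) were the others. The SIDL, Trs33, GAPcenA and Rab3GAP1 summits lay 245, 167, 192 and 149 bp from their own starts. They were nearer to another gene's start, at 137, 63, 13 and 104 bp.

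Effectors had 9 of 20. The strongest was Rbsn-5, an effector of Rab5 on early endosomes, with 919 and rank 832, and ranks 906 and 853 in the replicates. Its summit is 110 bp from its own start and 84 bp from the start of PAPLA1. Mical, which oxidises actin, had 672, the Rab11 effector Rip11 had 433 and the Golgi tether p115 had 284. The exocyst, a tether at the plasma membrane, had 4 of 8, Sec6 (680), Sec5 (291), Sec3 (276) and Sec15 (246). The list of HOPS and class C tethers had 3 of 9, Vps33B (1339), car (303) and Vps8 (224). The Mical, p115, Sec15 and Vps8 summits lay 299, 125, 364 and 206 bp from their own starts. They were nearer to another gene's start, at 76, 108, 110 and 177 bp. None of the 3 retromer genes was occupied.

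Among other small GTPase genes, Arl1, of the trans-Golgi, had a peak stronger than that of Rab5. Its signal value was 2136 and its rank 117, at a summit 133 bp from its start and equally far from that of brm. The Arf, Arl and Sar genes had 3 of 12 occupied, the others being Arl5 (383) and the lysosomal Arl8 (341). The Ras-type genes had 4 of 10, Rheb (287), Ric (250), Rap1 (176) and Ras85D (174). The Arl8, Rheb and Ric summits lay 127, 163 and 215 bp from their own starts. They were nearer to another gene's start, at 121, 143 and 99 bp.

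**Figure D4:**
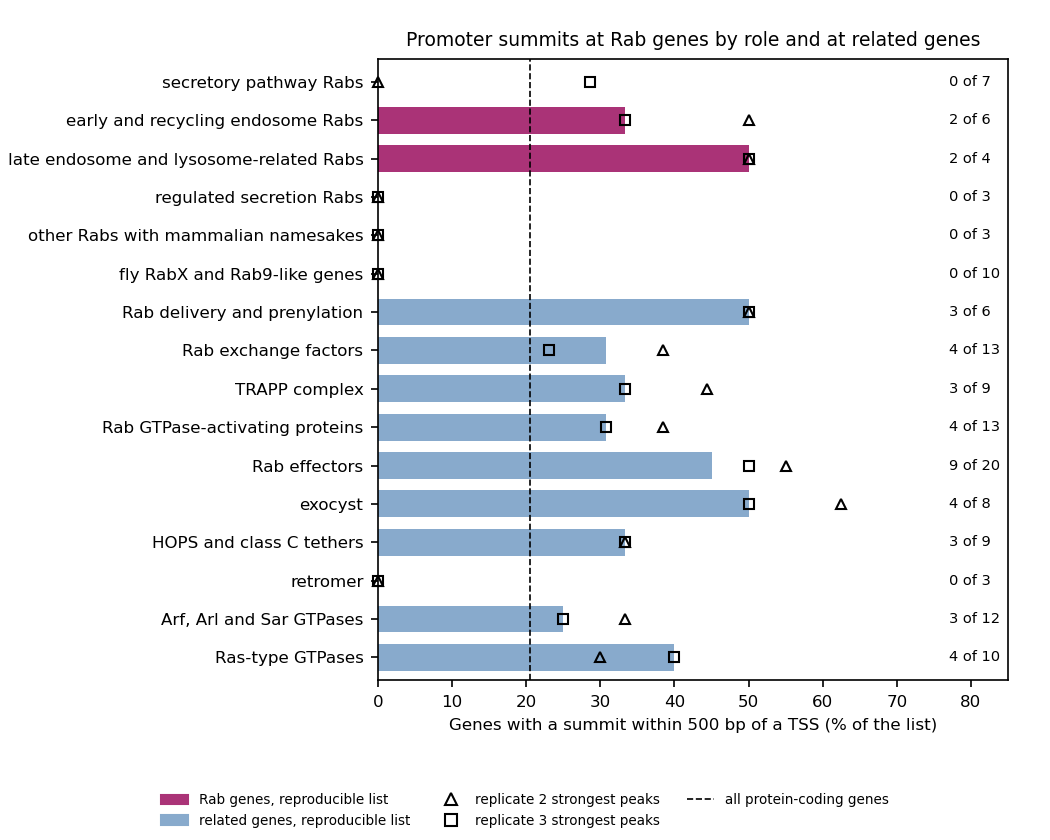
Percent of the genes of each Rab role and each related list shown with a summit within 500 bp of a TSS, as bars for the reproducible list and as triangles and squares for the 8015 strongest peaks of replicates 2 and 3; the dashed line is all protein-coding genes in the reproducible list (20.5%). Among Rab roles only the endosomal and lysosome-related ones have bars, and the secretory Rabs reach 2 of 7 in replicate 3.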

How the data were processed

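Peak positions and signal values are the authors' own. The authors deposited 4 narrowPeak lists on dm6. Per the labels, 1 replicate and a control gave each replicate list, both replicates gave the pooled list, and the reproducible list passed an irreproducible discovery rate filter. For the aligner, the caller and the cutoff, the source text is silent (not given in the sources used here). The deposited signal value is a score with no stated scale, and the deposited −log10 q-value was 4.42 for every reproducible peak. Each list was read with its summit (1-based). Read depth is unknown from these lists.

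Genes were taken from Ensembl release 115 with 19630 start sites, and sequence from the RefSeq copy of the assembly. Genes were called occupied if any start site had a reproducible summit at 500 bp or less. The 11 related lists had 111 matched genes, after RefSeq synonyms were used, and the symbols bet5, Tbc1d7 and TBC1D22 were not matched. Members and lists were chosen with earlier results of these data known. Every Rab gene was named, and of each related list the occupied genes of highest signal value, at most 4. Of these, 1 list and 1 further gene are not reported here, and they stay in the summed counts. Counting was tested on simulated data. The joint endosomal and lysosomal set and the count at promoters or in genes were chosen after values were seen. Analyses used Python 3.11.15, numpy 2.4.6, scipy 1.17.1, biopython 1.88 and matplotlib 3.10.9. Alternatives were a TSS window of 200 or 1000 bp, the stronger part of the reproducible list, all pooled peaks, each replicate alone, the nearest TSS only, interval overlap of at least 1 bp, and word windows of 100 bp.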

Additional observations from a re-analysis of the deposited data

How the results depend on the processing

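The number of occupied Rab genes was 4. It was 2 with a 200 bp window (Rab7 and Rab14), 7 with 1000 bp (adding Rab18, Rab30 and Rab35), 2 with the 4007 strongest reproducible peaks (Rab5 and Rab39) and 16 with all pooled peaks. It was 5 to 6 with 1 replicate left out, 3 with the nearest TSS only and 4 with interval overlap. The share of all genes, 20.5%, became 13.6%, 11.6% and 40.3% under the first, stronger-peak and pooled settings. It was 24.3% with 1000 bp, 20.4% to 21.5% with 1 replicate left out and 21.9% with interval overlap. The related genes, 42 of 111, became 21 with the stronger peaks, 73 with the pooled ones and 26 (23.4%) with the nearest TSS only. With the nearest TSS only, the share of all genes was 15.8%. Rab genes with a summit in the transcribed region, 6, became 3 with the stronger peaks and 15 with the pooled ones. They ran from 4 to 7 with 1 replicate left out. The share of all genes for this region was 15.2% in the reproducible list and 28.2% in the pooled list. It is not given here for the other settings. Promoter or body counts, 7, became 4 and 20, beside 16.6% and 44.3% of all genes, and ran from 5 to 9 with 1 replicate left out, beside 27.7% and 26.5%. The median position of Rab promoter summits, −110 bp, ran from −104 to −0.5 bp with 1 replicate left out. Wider windows and longer lists include more summits by construction, and other causes were not tested. No paired analysis was possible because the samples form 1 group. Depth is unknown, and with 2 replicates no gene-level error can be given.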
